A study of Mus musculus with 19 samples.

Results

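DNA replication and S phase genes were compared between retinal microglia taken 3 days after laser treatment (CNV d3) and microglia of unlasered control mice. The set holds 50 of the 27299 genes with reads in the data and was drawn up by gene name and function: origin licensing (10 genes), helicase activation (6), polymerases and primase (8), the sliding clamp and its loader (5), nucleotide supply (5), single strand binding and Okazaki fragment joining (5), chromatin assembly and upkeep of DNA methylation (6), and fork protection and repair (5). All 50 genes were found in the data, and all had at least 10 normalized counts in at least 6 of the 12 samples. In Mcm10, Cdc6, Pole, Brca1 and Exo1 at least 4 control samples had 0 reads, so these 5 reached this mainly through CNV d3. Both groups had 6 samples from mice aged 8 weeks. The labels name the strain C57BL/6J and a sort for CD45+ cells, while the methods name Cx3cr1 GFP/+ mice, which carry GFP in place of a copy of Cx3cr1, and cells low for CD45. Cells of both groups were otherwise sorted alike for CD11b and CX3CR1 and against Ly6C and Ly6G. In the laser group 6 burns had been set in each eye to break the layer beneath the retina and start choroidal neovascularization (CNV), the growth of choroidal vessels towards the retina. The central retina was taken in lasered eyes and dissected alike in control eyes, so cells away from the burns within it were sorted together with cells near them. The labels do not say whether samples came from separate animals, and p-values therefore measure the spread between these samples, which may be technical.

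Before a cell divides, it copies its genome in S phase. Origin recognition proteins with Cdc6 and Cdt1 load a ring of Mcm2 to Mcm7 onto DNA in advance, and Cdc45, the GINS complex and Mcm10 later turn this ring into the helicase that opens the strands. Primase and polymerase alpha start each strand, polymerases epsilon and delta extend it on the sliding clamp Pcna, which the RFC complex loads, and Lig1 seals the fragments of the lagging strand. Ribonucleotide reductase, thymidylate synthase and thymidine kinase supply the nucleotides, while CAF-1 sets histones onto the new DNA and Uhrf1 with Dnmt1 copies its methylation. Most of these genes are transcribed under E2F transcription factors as cells leave rest, and are low in resting cells. Microglia, the tissue macrophages of retina and brain, divide rarely in the healthy adult tissue and are known to divide after injury.

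E2F proteins bind DNA with a run of T followed by a core of G and C. The letters TTTCGCGC, TTTGGCGC, TTTCCCGC and TTTGCCGC were searched on both strands of the RefSeq promoter windows of GRCm38.p6, each of 300 bases (250 before and 50 after the transcription start). A window was given for 41 of the 50 genes. At least 1 match was found in 17 of these 41 genes (41.5%), against 2.6% of the 27025 genes with a window. Windows of the set were also richer in G and C, with a median of 58.3% against 52.7% in all windows, and the CCAAT letters occurred in 65.9% of the 41 genes against 41.1% of all. Within the narrower window of 100 bases before to 50 after the start, 29.3% of the 41 genes and 1.5% of all genes had a match. Below are the 200 bases before the start of 5 genes, 5′ to 3′ on the strand of the gene, with E2F matches of either strand in capitals, where overlapping matches run together. Mcm6, Mcm5 and Pola1 show matches of 3 licensing and polymerase genes, and Mcm2 and Mcm10 show increased genes in which no match was found.
Mcm6, chr1:128359706-128359905, minus strand: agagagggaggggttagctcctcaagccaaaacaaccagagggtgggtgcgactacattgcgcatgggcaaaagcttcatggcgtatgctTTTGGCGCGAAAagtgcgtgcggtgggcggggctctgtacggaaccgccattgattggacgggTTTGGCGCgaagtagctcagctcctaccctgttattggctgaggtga
Mcm5, chr8:75109309-75109508, plus strand: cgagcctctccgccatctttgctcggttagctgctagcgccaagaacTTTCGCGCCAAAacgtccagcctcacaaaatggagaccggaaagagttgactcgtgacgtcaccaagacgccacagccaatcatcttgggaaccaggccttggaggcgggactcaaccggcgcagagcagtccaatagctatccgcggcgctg
Pola1, chrX:93632156-93632355, minus strand: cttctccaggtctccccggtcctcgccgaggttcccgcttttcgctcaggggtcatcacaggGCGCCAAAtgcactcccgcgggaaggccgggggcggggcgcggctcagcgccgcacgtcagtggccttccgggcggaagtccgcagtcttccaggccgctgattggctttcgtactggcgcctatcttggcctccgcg
Mcm2, chr6:88898781-88898980, minus strand: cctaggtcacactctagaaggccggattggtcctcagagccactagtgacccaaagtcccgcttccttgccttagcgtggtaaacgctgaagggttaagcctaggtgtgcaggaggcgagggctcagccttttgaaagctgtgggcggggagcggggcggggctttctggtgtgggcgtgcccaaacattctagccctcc
Mcm10, chr2:5012792-5012991, minus strand: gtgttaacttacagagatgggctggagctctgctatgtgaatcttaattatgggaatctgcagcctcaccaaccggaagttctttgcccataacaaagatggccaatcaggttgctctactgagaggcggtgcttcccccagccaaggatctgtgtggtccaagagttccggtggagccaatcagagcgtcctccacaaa
In Mcm6 the 3 matches began 110, 106 and 47 bases before the start, the first and second of which overlap and lie on opposite strands. Mcm5 had overlapping matches that began 153 and 149 bases before the start, and the match of Pola1 began 138 bases before it. No window was given for Mcm4, Gins1, Gins2, Gins4, Rfc2, Prim2, Pole, Exo1 and Tipin. These matches describe letters in a window and not binding, which was not measured.

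Read depth differed between the groups, with 10963178 to 22335233 reads on genes in the control samples and 23532260 to 29523018 in the CNV d3 samples. The values are normalized counts, in which 1 read is worth between 0.739 and 1.99. A value of 0 allows up to 3 reads in that sample, and such a floor covers counting error only. As a check of the sort, the summed level of 10 microglia markers was 1268940 to 1455050 in control and 691843 to 1048500 in CNV d3, where Csf1r had the highest mean (303485), and P2ry12 was the only marker of the list called decreased. Of 8 monocyte markers, Ly6c2, Ccr2 and Plac8 increased and the other 5 were not called. The summed monocyte level was 39.2 to 343 in control and 592 to 2780 in CNV d3, led by Plac8 in control (mean 89.9) and Ccr2 in CNV d3 (mean 664). CNV d3 replicate 3 had the highest monocyte sum, followed by replicate 6 with 2327. Ly6c2 and Chil3, markers of classical monocytes, were at 0 in every control sample and averaged 12.9 and 4.95 in CNV d3. Neutrophil (0 to 6.65) and lymphocyte (0.801 to 11.6) sums stayed low in CNV d3, whereas Cspg4, alone among 5 pericyte and fibroblast markers with reads, increased from a mean of 0.54 to 224. Folr2 was the only border macrophage marker of 5 called increased (mean 5.37 to 28.1), and no marker of endothelium, photoreceptors, Mueller glia and astrocytes or pigment epithelium was called by limma. Sag, a photoreceptor gene, was called increased by edgeR and DESeq2 on the reads, with group means of 180 and 815. The part of other cells in the results below was not tested.

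In CNV d3, 26 of the 50 genes were increased and none was decreased. A DEG had an adjusted p under 0.05 and a log2 fold change of more than 1.5 in either direction, by limma on log2(normalized counts + 1), the scale of every log2 fold change given here. Across all genes, 3.91% were increased and 1.07% decreased by this rule. The increased share was 5.54% among protein-coding genes. It was 5.76% when only genes with at least 10 normalized counts in at least 6 samples were tested. A further 12 genes of the set were higher with an adjusted p under 0.05 but did not reach the fold change, which makes 38 of 50 against 8.29% of all genes. The median log2 fold change was 1.55 over the set and 0.15 over all genes, and Gins4 alone had a negative value, of -0.03. In 34 of the 50 genes every CNV d3 sample lay above every control sample, against 4.64% of all genes. In such bulk samples, a larger share of replicating cells and more replication RNA per cell cannot be told apart.

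**Figure D1:**
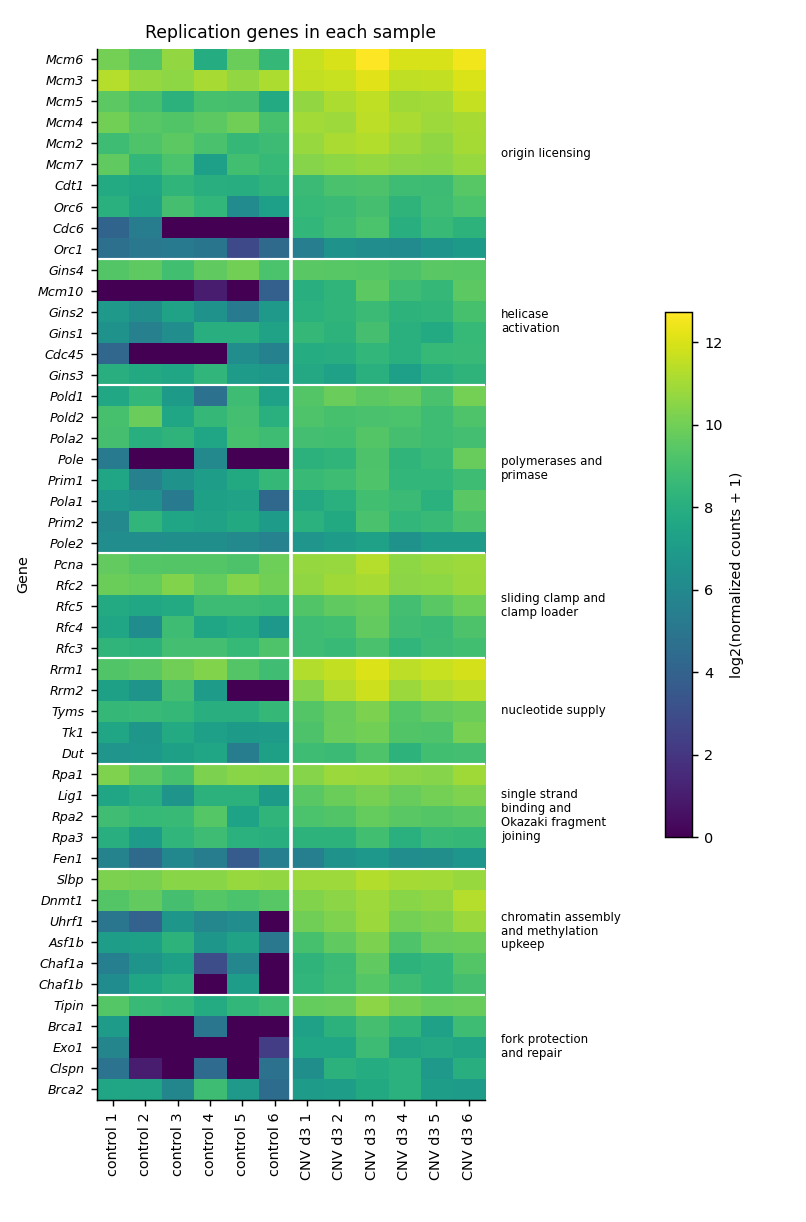
Level of the 50 replication genes (vertical axis, by role) in each of the 6 control and 6 CNV d3 samples (horizontal axis) as log2(normalized counts + 1), shown by colour from 0 (dark) to above 12 (yellow). Dark cells, the values of 0, occur only in control samples, and CNV d3 replicates 3 and 6 are the brightest columns in most of the increased genes.

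The summed level of the 50 genes was 16069, 16288, 17892, 18040, 18387 and 19416 in the control samples. In CNV d3 it was 39433, 46961, 63971, 43140, 44344 and 58227 in replicates 1 to 6. No control sample came near the lowest CNV d3 sample, and the mean rose from 17682 ± 1282 (SD, n = 6) to 49346 ± 9594 (n = 6), a ratio of 2.79. Relative to depth, the set took 747 to 903 CPM in control and 1808 to 3038 CPM in CNV d3. After thinning all samples to the depth of the shallowest, 8202 to 9868 reads remained in control and 19664 to 33235 in CNV d3. The ratio of summed levels, in which abundant genes weigh most, differed between roles. It was 5.08 for nucleotide supply, 3.17 for origin licensing, 3.09 for fork protection and repair, 2.81 for chromatin assembly and methylation, 2.31 for polymerases, 2.01 for helicase activation, 1.95 for the clamp and its loader, and 1.86 for single strand binding and Okazaki fragment joining. All CNV d3 sums lay above all control sums in each of the 8 roles.

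**Figure D2:**
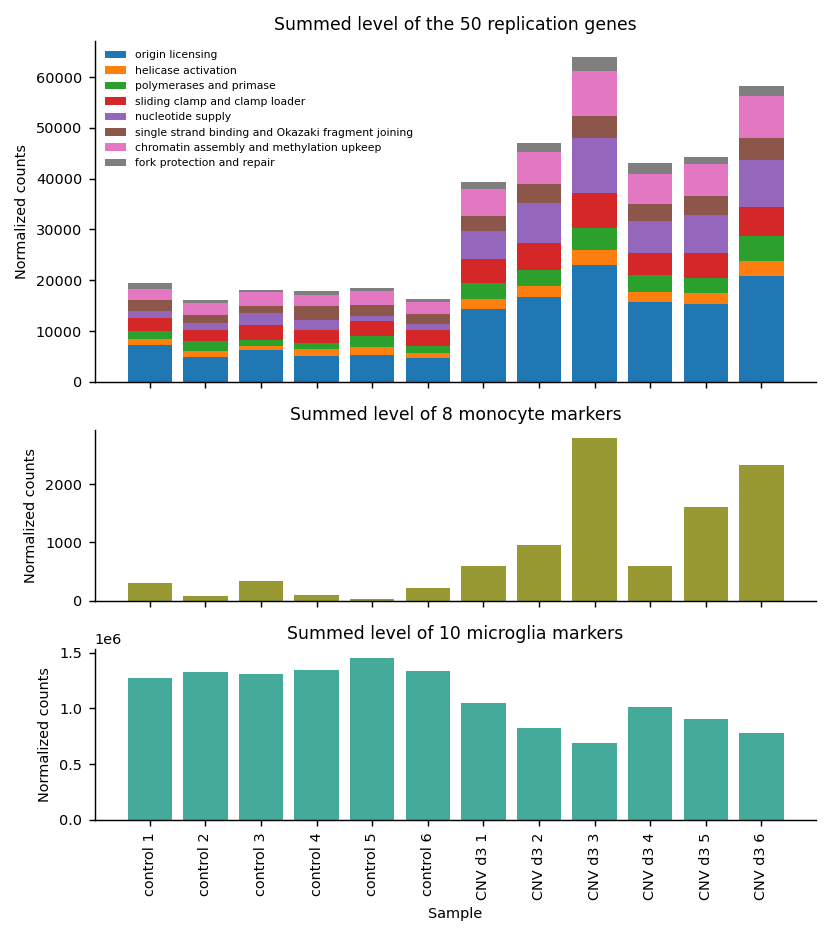
Bars give, for each sample (horizontal axis), the summed normalized counts of the 50 replication genes stacked by role (top), of 8 monocyte markers (middle) and of 10 microglia markers (bottom), each with an axis from 0. The replication sum is highest in CNV d3 replicates 3 (63971) and 6 (58227), which also have the highest monocyte sums (2780 and 2327) and the lowest microglia sums (691843 and 775634).

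CNV d3 samples differed among themselves along most of the set. Replicate 3 had the highest CNV d3 value for 28 of the 50 genes and replicate 6 for 18, while replicate 1 had the lowest for 26 and replicate 4 for 15. With replicates 3 and 6 left out together, a choice made after their monocyte sums were seen, 15 of the 50 genes were increased (all 15 among the 26), against 2.03% of all genes, and the median log2 fold change of the set was 1.41. By role these were Cdc6, Mcm2, Mcm5, Mcm6 and Mcm7 in licensing, Gins2 and Mcm10 in helicase activation, Pole among the polymerases, Dut, Rrm1 and Tk1 in nucleotide supply, Lig1, Asf1b and Uhrf1, and Exo1 in fork repair, with none among the clamp and its loader. The groups did not overlap in 35 genes without these samples, against 5.52% of all genes. Within the other 4 CNV d3 samples the summed level of the set was 39433 to 46961, still above every control sample, while their monocyte sums of 592 to 1615 also exceeded the control range. Mki67, a proliferation marker outside the set, was 0 to 229 in control and 1219 to 3232 in CNV d3, where replicate 1 was lowest and replicate 6 highest. It was named after its values were seen.

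Origin licensing gave the largest block of increased genes, 7 of 10 (Cdc6, Mcm6, Mcm5, Mcm2, Mcm7, Orc1 and Mcm4), and in 9 of 10 the groups did not overlap. The ring subunits themselves divided into 5 increased genes and Mcm3, which changed least. Mcm6 (chromosome 1, 128331590 to 128359664) had the highest CNV d3 level, with 234, 805 and 1627 as lowest, median and highest control values and 3241, 4023 and 6883 in CNV d3. The control samples were widely spread and still all below the lowest CNV d3 sample, and the log2 fold change was 2.73 (SE 0.38, limma, adjusted p = 0.000316). Mcm5 (chromosome 8, 75109569 to 75128439) ran from 224 over 519 to 742 in control and from 1628 over 2181 to 3216 in CNV d3 (log2 fold change 2.38, SE 0.26, limma, adjusted p = 5.46e-05). Mcm2 (chromosome 6, 88883474 to 88898780) had control values of 361, 494 and 735 and CNV d3 values of 1560, 2003 and 2474 by the same measures, a log2 fold change of 1.98 (SE 0.18, limma, adjusted p = 1.01e-05). In both, the lowest CNV d3 sample exceeded the highest control sample at least as clearly as in Mcm6.

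Mcm7 (chromosome 5, 138164583 to 138172422) varied more among the control samples (145, 427 and 803) than among the CNV d3 samples (1388, 1508 and 1787), and its log2 fold change was 1.95 (SE 0.30, limma, adjusted p = 0.000616). Mcm4 (chromosome 16, 15623897 to 15637400) passed the fold threshold by a small margin. It measured 528, 711 and 1031 in control against 1854, 2099 and 2827 in CNV d3, with a log2 fold change of 1.51 (SE 0.17, limma, adjusted p = 6.51e-05), and it was called in 8 of the 12 fits that leave out a sample. Mcm3 (chromosome 1, 20802968 to 20820312) was the most abundant ring subunit at rest, with 1520, 1924 and 2616 in control. CNV d3 values of 2966, 3207 and 4584 were all higher, but the log2 fold change of 0.83 (SE 0.15, limma, adjusted p = 0.0022) stayed below that of a DEG.

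**Figure D3:**
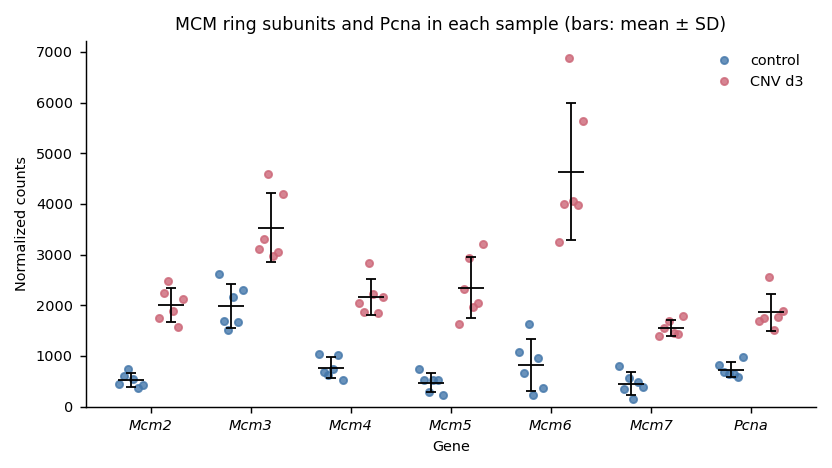
Normalized counts (vertical axis, linear) of the 6 ring subunits and Pcna (horizontal axis) in the 6 control and 6 CNV d3 samples, with horizontal bars and whiskers for mean ± SD. All CNV d3 points lie above all control points of the same gene, with the widest spread in Mcm6 (3241 to 6883) and the highest control points in Mcm3 (1520 to 2616).

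Licensing needs Cdc6 and Cdt1 in addition to the ring. Cdc6 (chromosome 11, 98907801 to 98923940), the loader that joins the origin recognition complex, had no reads in 4 of the 6 control samples and 16.1 and 40.5 in replicates 1 and 2. In CNV d3 its values were 267, 364 and 556 as lowest, median and highest, with means of 9.43 ± 16.5 and 382 ± 105 (n = 6 each) and a log2 fold change of 6.96 (SE 0.94, limma, adjusted p = 0.000232). Where control values of 0 enter, the fitted fold change depends on the value added before the logarithm, and the ratio of the means was 40.5. Cdt1, its partner in loading, moved less, from a mean of 260 ± 53.3 to 514 ± 108 (log2 fold change 0.98, limma, adjusted p = 0.00335) and did not reach the fold change of a DEG. Orc1, the subunit of the origin complex that is renewed in each cycle, was increased from a low level (mean 25.5 to 82.2), whereas Orc6 overlapped between the groups (70.3 to 515 in control, 312 to 564 in CNV d3, limma, adjusted p = 0.0999).

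Levels of different genes were compared per kb of annotated exon. At rest Mcm3 led the ring in every sample with a mean of 531 normalized counts per kb, followed by Mcm4 with 214, Mcm6 with 175, Mcm5 with 118, Mcm7 with 102 and Mcm2 with 74.3. Ranks below Mcm3 were not the same in all control samples, since Mcm4 exceeded Mcm6 in 5 of 6, Mcm6 exceeded Mcm5 in 5 of 6, Mcm5 exceeded Mcm7 in 4 of 6 and Mcm7 exceeded Mcm2 in 4 of 6. In CNV d3 the order of the means was Mcm6 (992), Mcm3 (942), Mcm4 (602), Mcm5 (588), Mcm7 (351) and Mcm2 (288). Mcm6 exceeded Mcm3 in 4 of 6 samples and Mcm4 exceeded Mcm5 in 4 of 6, so these neighbours were not separated, while the other steps held in 6 of 6. With the longest transcript as the length, Mcm6 and Mcm3 kept their ranks in CNV d3 and the other 4 changed theirs, so that the lower ranks rest on the annotation.

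The ring subunits lay closer to each other in CNV d3. Within a sample, the highest subunit per kb was 5.48 to 17.6 times the lowest in control (median 9.71) and 2.73 to 4.15 times in CNV d3 (median 3.56), and these ranges did not overlap. As a share of the summed level per kb of the ring, Mcm3 made up 32.8% to 59.0% in control (median 42.1%) and 23.5% to 27.1% in CNV d3 (median 25.1%), without overlap. Mcm5 took 5.41% to 12.3% in control and a larger 13.3% to 18.1% in CNV d3. Mcm6 had a median share of 13.6% in control and 26.0% in CNV d3, but 1 control sample reached 28.2% and the groups overlapped. Shares of Mcm2, Mcm4 and Mcm7 also overlapped between the groups. These shares are descriptions with no test, and since they sum to a whole, a lower share of Mcm3 goes with higher shares elsewhere.

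**Figure D4:**
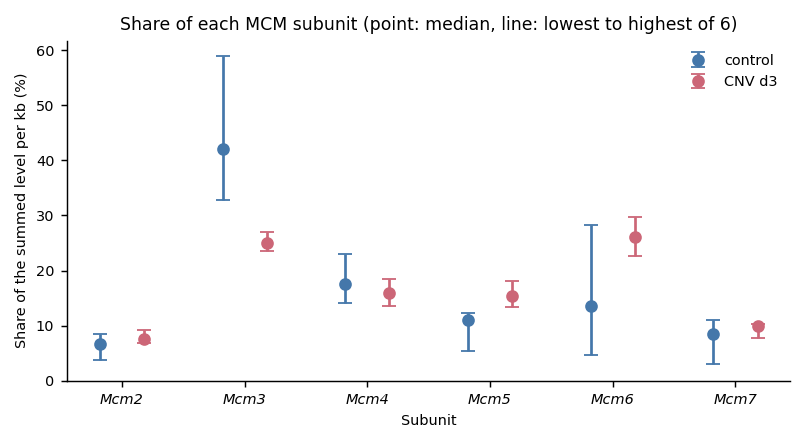
Share of each ring subunit (horizontal axis) in the summed normalized counts per kb of Mcm2 to Mcm7, in percent (vertical axis, from 0), with a point for the median and a line from the lowest to the highest of 6 samples. Mcm3 falls from a median of 42.1% in control to 25.1% in CNV d3 without overlap, and the lines of CNV d3 are shorter for all 6 subunits.

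Among the helicase activators, 3 of 6 were increased (Mcm10, Cdc45 and Gins2) of which Gins2 alone belongs to the GINS complex. Mcm10 (chromosome 2, 4989714 to 5012791), which helps to start unwinding, had the largest fold change of the set. It had no reads in 4 control samples, 1.01 in replicate 4 and 13.9 in replicate 6, against 262, 396 and 747 as lowest, median and highest CNV d3 values (log2 fold change 7.97, SE 0.72, limma, adjusted p = 1.15e-05). The ratio of its means, 2.49 ± 5.61 and 479 ± 215 (n = 6 each), was 193. Cdc45, the partner of the ring in the active helicase, was at 0 in 3 control samples and at most 75.3 in the others, while CNV d3 ranged from 239 to 402.

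GINS is a complex of 4 subunits, of which Gins2 was increased (mean 101 to 361, limma, adjusted p = 0.00107), although 67.3% of its exon bases are shared with Gse1 and its counts are uncertain. Gins1 had a mean of 149 in control and 337 in CNV d3, with a log2 fold change of 1.40 (limma, adjusted p = 0.0324) below that of a DEG. Gins3 (204 and 221) did not pass the test (limma, adjusted p = 0.717). Gins4 was the most abundant GINS gene and had the smallest fold change of the set. Its control values were 475, 705 and 1040 and its CNV d3 values 585, 687 and 726, so that CNV d3 lay inside the control range, with a log2 fold change of -0.03 (SE 0.17, limma, adjusted p = 0.925). Its share of the summed GINS level per kb was 65.0% to 81.6% in control and 48.0% to 63.3% in CNV d3.

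Polymerase and primase genes divided evenly, with 4 of 8 increased (Pole, Pold1, Pola1 and Prim1). Pole (chromosome 5, 110286306 to 110337474), the catalytic subunit of the leading strand polymerase, was at 0 in 4 control samples, at 36.5 in replicate 1 and at 63.9 in replicate 4. The CNV d3 samples had 290, 364 and 887 as lowest, median and highest values, with a log2 fold change of 6.87 (SE 1.07, limma, adjusted p = 0.000652) and a ratio of means of 27.9. Its partner Pole2 moved from 70.5 ± 12.1 to 120 ± 22.8 without overlap but did not pass the test (log2 fold change 0.75, limma, adjusted p = 0.0967).

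In polymerase delta, too, the catalytic subunit was increased and the accessory one was not. Pold1 (chromosome 7, 44532746 to 44548849), the catalytic subunit of the lagging strand polymerase, had 26.4, 174 and 448 in control and 537, 774 and 1092 in CNV d3, the highest mean of this role (log2 fold change 2.29, SE 0.51, limma, adjusted p = 0.00785). Its accessory subunit Pold2 had the smallest change of the role, with control values of 178, 423 and 906 around the CNV d3 values of 449, 552 and 609 (log2 fold change 0.45, SE 0.30, limma, adjusted p = 0.402). As shares of each pair per kb, Pole took 0% to 17.3% in control and 40.0% to 64.6% in CNV d3, and Pold1 took 2.76% to 26.6% and 29.6% to 41.6%. In polymerase alpha the catalytic Pola1 was increased (mean 93.7 to 394, limma, adjusted p = 0.0071), and its accessory Pola2 had a log2 fold change of 0.53 that did not pass the test (limma, adjusted p = 0.188). Whether the subunits of a polymerase differ in their change was not tested.

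Of the primase genes, Prim1 was increased with a log2 fold change of 1.55 just above the threshold (limma, adjusted p = 0.015), although the highest control sample (353) exceeded the lowest CNV d3 sample (346). It was called in 7 of the 12 fits that leave out a sample. Prim2 had a log2 fold change of 1.18 (limma, adjusted p = 0.0426), below that of a DEG.

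The sliding clamp Pcna (chromosome 2, 132249162 to 132253314), the ring that holds polymerases on DNA, had 575, 663 and 973 in control and 1520, 1758 and 2561 in CNV d3. All CNV d3 samples were higher and the mean went from 724 ± 149 to 1861 ± 363 (n = 6 each), but the log2 fold change of 1.36 (SE 0.16, limma, adjusted p = 6.62e-05) was below that of a DEG. Its pseudogene Pcna-ps2, counted separately, had means of 4.76 and 18.4, small beside the gene. Of the clamp loader, Rfc4 alone was increased, with 72.9, 185 and 445 in control and 415, 469 and 813 in CNV d3 (log2 fold change 1.56, SE 0.35, limma, adjusted p = 0.00887). Its highest control sample exceeded its lowest CNV d3 sample, and edgeR on the reads gave 1.38, below the threshold. Rfc5 and Rfc2 were higher with log2 fold changes of 1.29 and 0.74 (limma, adjusted p = 0.00271 and 0.00327), also below that of a DEG.

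Rfc3, another loader subunit, had the smallest change of this role, with 287, 435 and 596 in control and 340, 429 and 536 in CNV d3 (log2 fold change 0.04, SE 0.20, limma, adjusted p = 0.912). Per kb, the CNV d3 order Rfc4 (347), Rfc2 (278), Rfc5 (160) and Rfc3 (119) held in all 6 samples at each step. In control the means were 134 for Rfc4, 168 for Rfc2, 67.3 for Rfc5 and 119 for Rfc3, and Rfc4 exceeded Rfc3 in 3 of 6 samples. The share of Rfc3 among the 4 loader subunits was 18.5% to 34.0% in control and 11.8% to 15.3% in CNV d3.

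Nucleotide supply had the largest ratio of summed levels of any role, with 4 of 5 genes increased and all 5 without overlap between the groups. Its median log2 fold change of 2.13 was below that of fork protection and repair (5.07) and of chromatin assembly and methylation (3.32). Rrm1, the large subunit of ribonucleotide reductase, had the highest level, with 451, 682 and 1295 in control and 2497, 3168 and 4358 in CNV d3 (log2 fold change 2.13, SE 0.22, limma, adjusted p = 3.44e-05). Rrm2 (chromosome 12, 24708241 to 24714146), the small subunit whose level limits the enzyme in S phase, was uneven at rest. It was at 0 in control replicates 5 and 6, had a control median of 113 and a highest control value of 510, and reached 1390, 2410 and 3486 in CNV d3 (log2 fold change 6.19, SE 1.34, limma, adjusted p = 0.00662). The ratio of its means was 16.2.

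Per kb, Rrm2 relative to Rrm1 was 95.6%, 52.7%, 200%, 39.6%, 0% and 0% in control replicates 1 to 6. In CNV d3 it was 221%, 314%, 318%, 251%, 292% and 297%, above every control sample. Rrm2b, the alternative small subunit used outside S phase and not a gene of the set, went the other way, with means of 682 ± 202 and 345 ± 64.4, no overlap and a log2 fold change of -0.96 (SE 0.21, limma, adjusted p = 0.00722) below the size of a DEG. Tk1 and Dut, which salvage thymidine and keep uracil out of DNA, were increased with log2 fold changes of 2.41 and 1.99 (limma, adjusted p = 2.18e-05 and 0.000948). Tyms, which makes thymidylate, had 257, 357 and 389 in control and 644, 845 and 1220 in CNV d3, and its log2 fold change of 1.36 (SE 0.19, limma, adjusted p = 0.000254) did not reach that of a DEG.

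Single strand binding and Okazaki fragment joining had 1 increased gene of 5. Lig1, the ligase of the lagging strand, had 96.8, 219 and 291 in control and 706, 1019 and 1233 in CNV d3 (log2 fold change 2.36, SE 0.28, limma, adjusted p = 7.84e-05). The RPA complex, which coats single strands during replication and also in repair, had log2 fold changes from 0.37 to 0.88 in its 3 subunits. Rpa1, its largest subunit and the highest gene of this role, had 531, 1238 and 1448 in control against 1391, 1624 and 1935 in CNV d3, and overlapped (log2 fold change 0.65, SE 0.23, limma, adjusted p = 0.0736). Rpa3 had 131, 267 and 445 against 271, 330 and 472 (log2 fold change 0.37, SE 0.26, limma, adjusted p = 0.418). Rpa2 passed the test below the fold threshold (log2 fold change 0.88, limma, adjusted p = 0.0357). Fen1, the flap nuclease, did not pass the test (mean 37.8 and 83.7, limma, adjusted p = 0.0975), and 84.2% of its exon bases are shared with other genes, which leaves few reads that can be assigned to it.

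Of the genes for chromatin assembly and methylation upkeep, 3 of 6 were increased (Uhrf1, Chaf1a and Asf1b). Uhrf1 (chromosome 17, 56303321 to 56323486), which brings Dnmt1 to newly copied DNA, had 0, 44.5 and 105 in control and 1003, 1227 and 1836 in CNV d3. Every control sample lay far below the lowest CNV d3 sample, and the log2 fold change was 5.72 (SE 0.86, limma, adjusted p = 0.000491) with a ratio of means of 28.7. Dnmt1 itself, the methyltransferase, was present at rest with a mean of 649 ± 114 and reached 1716 ± 481, a log2 fold change of 1.38 (limma, adjusted p = 0.000146) below that of a DEG.

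CAF-1 deposits histones behind the fork. Its large subunit Chaf1a was increased (mean 59.6 to 468, limma, adjusted p = 0.0113), with 52.5% of its exon bases shared with Ubxn6, and was called in 9 of the 12 fits that leave out a sample. Chaf1b had a mean of 107 in control, with 0 reads in 2 samples and 250 at most, and 453 in CNV d3. Its groups did not overlap but it did not pass the test (log2 fold change 3.98, SE 1.29, limma, adjusted p = 0.057). The histone chaperone Asf1b was increased from a mean of 149 to 823 (limma, adjusted p = 0.000517). Slbp, which binds the stem-loop of histone mRNA, had the highest level and the smallest change of this role, with 1115, 1417 and 1768 in control and 1758, 1953 and 2445 in CNV d3 (log2 fold change 0.51, SE 0.13, limma, adjusted p = 0.0159).

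Fork protection and repair had 3 increased genes of 5 (Exo1, Brca1 and Clspn), each with 0 reads in at least 2 control samples. Exo1 (chromosome 1, 175880581 to 175913489), an exonuclease of mismatch repair, was at 0 in 4 control samples, at 3.97 in replicate 6 and at 54.8 in replicate 1. Its CNV d3 values were 174, 178 and 425 (log2 fold change 6.36, SE 0.95, limma, adjusted p = 0.000475). Brca1, which protects stalled forks, had means of 27.1 and 315 but was not called by DESeq2 (adjusted p = 0.0812), and Clspn, a mediator of the replication checkpoint, of 12.7 and 211 (limma, adjusted p = 0.00271 for Brca1 and 0.00241 for Clspn). Tipin, which holds the fork together with Timeless, was the most abundant gene of this role, with 225, 371 and 670 in control and 841, 869 and 1457 in CNV d3. Its log2 fold change of 1.34 (SE 0.23, limma, adjusted p = 0.00135) was below that of a DEG. Brca2, a mediator of recombination repair, had 21.8, 144 and 438 in control and 129, 135 and 284 in CNV d3, with complete overlap (log2 fold change 0.53, SE 0.56, limma, adjusted p = 0.58).

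**Figure D5:**
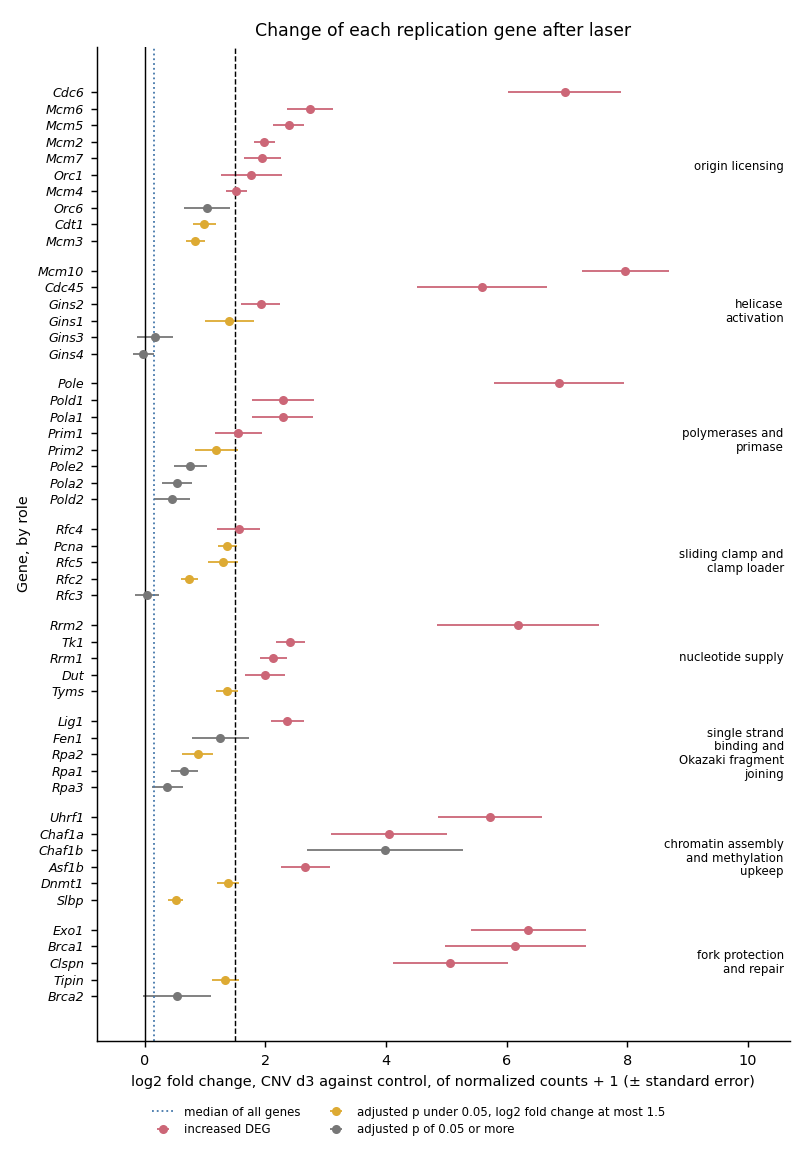
Log2 fold change of CNV d3 against control, on log2(normalized counts + 1), with the standard error (horizontal axis) for the 50 replication genes by role (vertical axis). The dashed line marks the DEG threshold of 1.5 and the dotted line the median of all genes (0.15), with 26 genes shown as increased, 12 with an adjusted p under 0.05 at a smaller change and 12 that did not pass the test.

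Genes of the set differed in whether they were found at rest. In 11 genes at least 1 control sample had 0 reads (Mcm10, Cdc45, Cdc6, Pole, Rrm2, Chaf1a, Chaf1b, Uhrf1, Brca1, Exo1 and Clspn), and 10 of these were increased, with ratios of means from 4.23 to 193 (median 16.6), which are large in part by construction since low control values chose these genes. In the other 39 genes, 16 were increased and the ratios ran from 0.95 to 5.66 (median 2.45). Each control sample had 1 to 7 of the 50 genes at 0 and each CNV d3 sample had none. This held after thinning to equal depth, with 1 to 8 genes at 0 in control and none in CNV d3. Control samples also had reads on fewer genes of any kind, 15076 to 17224 against 18276 to 19116 in CNV d3. Thinning evens out the number of reads only, and how far this wider difference sets the values of 0 was not tested. The 12 genes that did not pass the test by limma were Gins3, Gins4, Rfc3, Pola2, Pole2, Pold2, Fen1, Rpa1, Rpa3, Orc6, Chaf1b and Brca2, with ratios from 0.95 to 4.23. DESeq2 on the reads gave adjusted p of 0.0016 for Pole2, 0.018 for Fen1 and 0.0441 for Rpa1, with log2 fold changes below 1.5. edgeR gave none of the 12 an adjusted p under 0.05.

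Gene by gene, values varied less in CNV d3 than in control relative to their mean, in most of the set. The summed level of the set went the other way, with 49346 ± 9594 (SD) in CNV d3 against 17682 ± 1282 in control. The coefficient of variation across samples had a median of 43.6% in control (17.1% in Pole2 to 226% in Exo1) and 24.7% in CNV d3 (7.56% in Gins4 to 49.5% in Pole), and it was lower in CNV d3 for 45 of 50 genes. Counts of single reads are less precise at the low levels and lower depth of the control samples, and how much of this spread they set was not tested. The same measure was not taken over all genes, so the difference cannot be called particular to this set.

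By promoter, 10 of the 17 genes with an E2F match were increased (median log2 fold change 1.95, range 0.04 to 6.96), as were 12 of the 24 with a window but no match (median 1.55, range 0.37 to 7.97) and 4 of the 9 without a window. Mcm10, with the largest change, had no match in its window. That window ends in TTTGGCG, so a match that runs over its edge would be missed. Rfc3 and Gins3, which did not pass the test, had matches. Among the 5 increased ring subunits, Mcm5, Mcm6 and Mcm7 had matches, Mcm2 had none and Mcm4 had no window. Mcm3, the ring subunit that was not called, also had matches.

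Of 42 further replication genes that are not in the set, 41 were found and 15 were increased, against 3.91% of all genes. None was decreased, and the median log2 fold change was 1.43. On the recovered reads edgeR called 10 of the 41 genes increased, DESeq2 11 and voom 19. The shares of all genes were 3.07%, 3.33% and 4.62% in the same order. Groups did not overlap in 18 that were higher and 2 that were lower in CNV d3, against 4.64% and 2.83% of all genes. Large changes were those of Ccne1, the cyclin that starts S phase, from a mean of 1.89 to 350 (log2 fold change 7.53, SE 0.67, limma, adjusted p = 1.01e-05), and of Ticrr, which helps load Cdc45, from 2.26 to 174 (6.25, SE 0.72). The most negative were those of Rrm2b, given above, of Dctd, a deaminase that feeds thymidylate synthesis (mean 126 and 82.5, log2 fold change -0.77, limma, adjusted p = 0.262), and of Top1, the topoisomerase that relaxes DNA (mean 1541 and 1032, log2 fold change -0.57, limma, adjusted p = 0.00468). With CNV d3 replicates 3 and 6 left out, 4 of the 41 genes were increased, against 2.03% of all genes. Without replicate 2, 3, 5 or 6 alone 9 were increased, against 3.04% to 3.24% of all genes.

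On the recovered reads, edgeR called 23 of the 50 genes increased, all among the 26, against 3.07% of all genes. Rfc4, Prim1 and Orc1 were not called by edgeR. DESeq2 called 22, also all among the 26, against 3.33% of all genes, and did not call Mcm4, Rfc4, Prim1 and Brca1. Leaving out each sample in turn gave 22 to 27 increased genes of the set, with the fewest without CNV d3 replicate 3.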

How the data were processed

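RNA of sorted retinal microglia was measured by bulk RNA-seq from picogram amounts, with full-length cDNA amplified by PCR without molecular identifiers and sequenced as single reads. The 19 entries of the labels make 12 samples, since 7 of the 12 (each control and the fourth CNV d3 sample) have entries for 2 parts, which the authors merged. This split nearly coincides with the groups, so any effect of it cannot be told apart from that of the laser. Per the labels and methods, the authors mapped reads with STAR 2.7.2b to GRCm38 with Gencode M25, counted them with featureCounts 1.6.4 at default settings, without strand and without reads that lie in several genes or places, and dropped every gene that had no read in any sample. As deposited, the signal of a gene is its read count divided by the size factor of the sample from DESeq2 1.22.2, here called normalized counts. Every value was a whole multiple of the value of 1 read (100% of values in all 12 samples, tolerance 1e-06), so reads could be recovered. The deposited means, fold changes and adjusted p-values of the authors were not used.

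Groups were compared with limma 3.58.1 in R 4.3.3 on log2(normalized counts + 1) with a variance trend over all 27299 genes and Benjamini-Hochberg adjustment, without a filter beyond that of the authors. edgeR 4.0.16 and DESeq2 1.42.0 on the recovered reads, limma voom, other scalings, filters, pseudocounts and thresholds, thinning, the replicate number as a block and leaving out samples were alternatives. All tools were tested on simulated data. No gene as low in control as Mcm10, Cdc6, Pole, Exo1 or Brca1 was changed there, so the test does not cover such genes. The lowest chi-square per degree of freedom between replicates was 29.6, so no sample was counted as a repeat sequencing of another library. This value cannot show whether libraries shared an animal or RNA, since amplification also adds to it. Coordinates came from Gencode M21, also on GRCm38, in which 27238 of the 27299 genes were matched by identifier, and promoter windows from RefSeq on GRCm38.p6. Levels per kb used the union of annotated exons. Of the 50 genes, 15 share exon bases with another gene, 3 of them over more than 50% of their exon bases.

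The 50 genes, the further replication genes and the marker lists were chosen with earlier results of these data known. Values are given in full for the ring subunits and Pcna and, in each role, for the gene with the highest CNV d3 mean and those with the largest and smallest log2 fold change. They are also given for the 3 largest and 3 smallest changes of the further genes and for the highest marker of a list in each group, except for items that are not reported here. Other genes were named for their role and their values had been seen. The precision of low values is limited by the depth given in the text, and intervals other than standard errors were not computed.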

Additional observations from a re-analysis of the deposited data

Results flagged for a closer look

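A sample stood apart from the other 5 of its group in 6 of 54 tested groups of values, by Dixon's test of the gap to the nearest other sample, where chance gives about 1 in 20. In CNV d3 replicate 3, Pcna was 2561 normalized counts (next 1881), Tipin 1457 (next 1061) and Exo1 425 (next 203). In control samples, Mcm10 was 13.9 in replicate 6 (next 1.01), Rrm2 was 510 in replicate 3 (next 152) and Exo1 was 54.8 in replicate 1 (next 3.97). In all 6 cases the groups did not overlap. CNV d3 replicate 3 also had the highest sum of monocyte markers, 2780, whose part in these values was not tested.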

How the results depend on the processing

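The count of 26 increased genes was similar under the alternatives with the same thresholds, namely 26 with TMM scaling, 27 with a filter on low values, 26 and 27 with pseudocounts of 0.5 and 5, 23 with edgeR, 22 with DESeq2, 26 with voom, 25 after thinning and 22 to 27 when a sample was left out, and none was decreased in any. With a log2 fold change threshold of 1 there were 33, and with none 38. Leaving out CNV d3 replicates 3 and 6 together, chosen after seeing the data, gave 15 genes of the set and 4 of the 41 further genes in place of 15, with fewer samples in the test. The further genes gave 9 to 14 when a sample was left out. Gins4, near 0, ranged from -0.14 to 0.09 on the log2 scale when a sample was left out, and was 0.0028 without control replicate 2, 0.0088 without control 4, 0.089 without control 5 and 0.013 without CNV d3 replicate 4. Rfc3, also near 0, ranged from -0.069 to 0.14 and was -0.03 without control 1, -0.069 without control 2, -0.03 without CNV d3 replicate 3 and -0.081 without replicates 3 and 6. With the longest transcript as length, 2 of the 6 ring subunits kept their rank. Without CNV d3 replicates 3 and 6, 11 genes of the set lost their call. They were Mcm4, Cdc45, Rfc4, Pola1, Prim1, Pold1, Rrm2, Orc1, Chaf1a, Brca1 and Clspn. Their log2 fold changes were 85.1% to 97.5% of those with all samples, 8 of the 11 stayed above 1.5, and all but Mcm4 had adjusted p from 0.0504 to 0.147 (limma). With the replicate number as a block 26 genes were increased, 25 of them shared. Correlations of same-numbered samples were only -0.02 to 0.05, so no pairing by number was detected. Low correlations cannot show that none exists. Samples with the same number correlated best with each other for replicate 3 only.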
